A study of Mus musculus with 18 samples.

Results

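Purinergic signalling was followed in differentiating mouse embryonic stem (ES) cells through 10 genes: the adenosine receptors Adora1, Adora2a and Adora2b, the nucleotide receptors P2rx4, P2ry1 and P2ry2, the ectoenzymes Entpd1, Entpd2 and Nt5e, and the nucleoside transporter Slc29a1. Members were taken by symbol from the probe annotation, and all 10 of 30869 symbols were found, with 18 of the array's 45281 probes. The study asked how a loss of hypoxanthine guanine phosphoribosyltransferase (HPRT), a purine salvage enzyme, changes gene expression while ES cells become dopaminergic neurons. RNA was measured on 18 Illumina MouseWG-6 v2 bead arrays, with 3 arrays for each of 6 conditions. All cells were of the ESD3 line, from strain 129s2/SvPas. Control cells carried an shRNA against luciferase and HPRT-knockdown cells an shRNA against HPRT, delivered by a virus that the sample notes call a retrovirus and the study's methods a lentiviral vector, so that controls had also been transduced. Both were examined at the ES stage, grown on mouse embryo fibroblast feeder cells, at the spherical neural mass (SNM) stage, an intermediate of neural precursors, and at the final neuronal stage.

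For each condition, RNA of replicate cultures had been combined into 1 pool, which all 3 of its arrays measured. Each p-value below therefore measures the spread between arrays, which may be technical, and each comparison is between RNA pools. With 3 arrays against 3, an exact permutation test of a single gene could not go below p = 0.1, and calls were made with limma across all probes. In bulk RNA, fewer cells of a type and less RNA per cell cannot be told apart.

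Cells release ATP, which opens P2X ion channels and activates P2Y receptors, a family coupled to G proteins. Ectonucleotidases of the Entpd family remove phosphates from ATP and ADP, and Nt5e (CD73) turns the resulting AMP into adenosine. Adenosine acts on the Adora receptors, and the equilibrative transporter Slc29a1 carries it across the cell membrane. In the brain these components are divided among neurons, astrocytes, oligodendrocyte lineage cells and microglia, and they are known for roles in synaptic modulation and in calling glia to injury.

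Expression is given as log2 of the background-corrected, quantile-normalized signal. Tests covered the probes that all 3 arrays of 1 or more of the compared conditions detected, with a detection p-value under 0.05. It was called where its Benjamini-Hochberg adjusted p-value over all probes tested was under 0.05 and its change at least 1.5-fold. Each gene is represented by its probe with the highest mean log2 signal, and its other probes are given where they bear on the result. Levels are compared between conditions within a probe and never between probes.

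Between 18827 and 22202 probes were detected per array, and arrays of a condition correlated at 0.992 to 0.997. Hprt1, the target gene, averaged 12.04 in control and 7.95 in HPRT-knockdown ES cells, 11.20 and 9.44 among SNM cells, and 11.05 and 6.60 among neuronal cells. All 6 pluripotency markers were detected at the ES stage. Of 7 neuron markers, 6 in control and 5 in HPRT-knockdown neuronal cells were detected on all 3 arrays. Their summed signal ran from 9544 to 10199 in control and from 3809 to 4033 in HPRT-knockdown neuronal cells. At the ES stage the sums were 1742 to 1790 and 1749 to 1794. Snap25 was not detected in either neuronal cell type and Tubb3 was not detected in HPRT-knockdown neuronal cells, so the label was only partly borne out.

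Upstream sequences are shown first for the genes whose expression the results turn on. P2rx4, P2ry1 and Nt5e were called higher together in HPRT-knockdown cells at the neuronal stage, Adora2b was called lower there, and Entpd2 rose most at the SNM stage. Adora1 was also called higher at the neuronal stage by its main probe, and its upstream windows are not shown. Each line holds the 250 bases before the transcription start given by RefSeq (build GRCm38.p6), read 5′ to 3′ on the gene's strand. Capitals mark matches, on either strand and with overlapping matches counted, to the GC box GGGCGG, the CCAAT box, the TATA box TATAAA, the E-box CAGCTG or the cyclic AMP response core TGACG.
P2rx4, chr5:122707294-122707543, plus strand: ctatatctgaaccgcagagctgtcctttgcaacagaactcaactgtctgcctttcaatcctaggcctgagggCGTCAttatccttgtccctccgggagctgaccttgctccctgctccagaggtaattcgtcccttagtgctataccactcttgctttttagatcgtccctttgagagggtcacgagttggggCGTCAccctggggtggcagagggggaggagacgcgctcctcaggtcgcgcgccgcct
P2ry1, chr3:61002535-61002784, plus strand: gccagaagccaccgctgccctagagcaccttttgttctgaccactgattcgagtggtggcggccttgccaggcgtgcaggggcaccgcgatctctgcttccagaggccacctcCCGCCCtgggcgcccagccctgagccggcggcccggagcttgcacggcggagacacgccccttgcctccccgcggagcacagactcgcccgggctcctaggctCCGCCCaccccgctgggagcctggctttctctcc
Nt5e, chr9:88327359-88327608, plus strand: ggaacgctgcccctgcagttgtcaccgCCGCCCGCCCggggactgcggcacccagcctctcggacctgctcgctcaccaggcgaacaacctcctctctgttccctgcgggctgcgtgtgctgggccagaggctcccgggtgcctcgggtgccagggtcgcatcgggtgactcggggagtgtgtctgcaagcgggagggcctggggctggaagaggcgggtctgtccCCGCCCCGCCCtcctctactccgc
Entpd2, chr2:25395624-25395873, plus strand: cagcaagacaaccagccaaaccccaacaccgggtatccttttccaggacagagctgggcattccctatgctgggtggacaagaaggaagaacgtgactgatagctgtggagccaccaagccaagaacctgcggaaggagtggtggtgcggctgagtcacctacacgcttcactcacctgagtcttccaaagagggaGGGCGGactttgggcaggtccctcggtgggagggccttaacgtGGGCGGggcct
Adora2b, chr11:62248734-62248983, plus strand: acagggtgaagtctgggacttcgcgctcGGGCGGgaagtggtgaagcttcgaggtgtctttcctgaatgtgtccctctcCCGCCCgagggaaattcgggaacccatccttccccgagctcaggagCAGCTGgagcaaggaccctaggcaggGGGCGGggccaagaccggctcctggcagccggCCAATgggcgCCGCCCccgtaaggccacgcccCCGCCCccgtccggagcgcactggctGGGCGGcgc

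Nt5e held 4 matches to the GC box, P2ry1 2, Entpd2 2 and Adora2b 6, whereas P2rx4 held none and had 2 matches to TGACG. Adora2b also held 1 CCAAT box and 1 E-box. No window of the 5 held TATAAA. Among all 32851 windows of this length, 32.7% held the GC box, 33.8% the CCAAT box, 12.4% TATAAA, 13% CAGCTG and 17.8% TGACG. G and C made up 72% of the Nt5e window, 70.8% of P2ry1, 69.6% of Adora2b, 59.2% of Entpd2 and 57.2% of P2rx4, against a median of 52.4% over all windows. The windows of P2rx4, P2ry1 and Nt5e thus shared none of the searched motifs across all 3 genes. A match describes these letters and is not a binding site. Of the 10 genes, 9 had an upstream window in the RefSeq table used.

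Of the 10 genes, 8 were detected on all 3 arrays of at least 1 condition. Adora1, Adora2b, P2rx4 and Slc29a1 were so detected in all 6 conditions. P2ry1, Entpd2 and Nt5e reached this level only from the SNM stage onward, and P2ry2 only in HPRT-knockdown cells at the neuronal stage. Adora2a, the receptor typical of striatal neurons, and Entpd1 (CD39), an ectonucleotidase typical of microglia and vessels, did not pass in any condition: the single Adora2a probe was detected on 1 array of control neuronal cells and both Entpd1 probes on none.

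**Figure D1:**
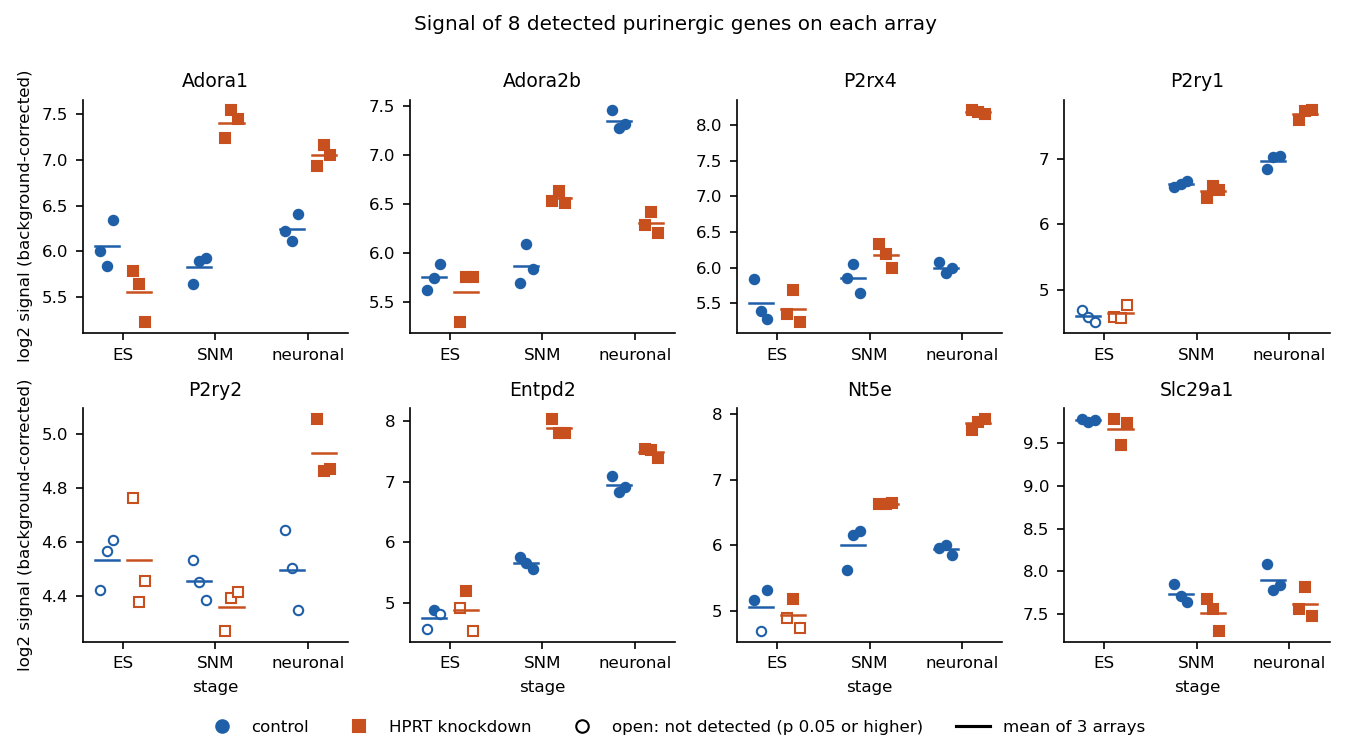
Log2 signal of the main probe of the 8 detected genes on each of 18 arrays, by stage, with control cells as blue circles, HPRT-knockdown cells as orange squares, open symbols for arrays without detection and lines for means of 3 arrays. The vertical scale differs between panels. P2rx4 stood near 8.19 in HPRT-knockdown neuronal cells and between 5.42 and 6.17 in the means of the other 5 conditions, and Slc29a1 fell from the ES to the SNM stage in both cell types.

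At the ES stage, HPRT knockdown left the purinergic genes without a call. Of the 4 members tested, 0 were called, against 1.68% of all probes tested (0.516% higher and 1.17% lower), and 1 member had an unadjusted p-value under 0.05. That gene was Adora1, the inhibitory adenosine receptor, which gave 6.0, 5.84 and 6.35 in control and 5.78, 5.65 and 5.23 in HPRT-knockdown cells. The arrays did not overlap, and the log2 difference of -0.51 (SE 0.15, limma adjusted p = 0.0382) was smaller than 1.5-fold. Without control array 2 or without HPRT-knockdown array 1 it passed, at -0.62 and -0.63. Log2 differences of the other 3 tested members, Adora2b, P2rx4 and Slc29a1, lay between -0.15 and -0.08.

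At the SNM stage 4 of 7 members tested were called higher in HPRT-knockdown cells and 0 lower. Of all probes tested, 19.9% were called, 11% higher and 8.9% lower. They were the adenosine receptors Adora1 and Adora2b and the ectoenzymes Entpd2 and Nt5e. The median log2 difference over the 7 members was 0.62, against -0.04 over all probes tested. P2rx4, P2ry1 and Slc29a1 were tested and not called.

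Entpd2, an ectonucleotidase that turns ATP mainly into ADP, had the largest difference of the members at this stage. It gave 5.75, 5.66 and 5.56 on the control arrays and 8.04, 7.80 and 7.80 on the HPRT-knockdown arrays. All HPRT-knockdown arrays lay above all control arrays, by 4.66-fold (log2 2.22, SE 0.13, limma adjusted p = 1.53e-09). Astrocyte markers moved alongside. Of 6 astrocyte markers tested, 4 were called higher, and their summed signal ran from 13904 to 14679 in HPRT-knockdown and from 7164 to 7833 in control SNM cells. Skeletal muscle markers also differed at this stage, with 6 of 7 tested called higher and sums of 2771 to 2994 against 1459 to 1501, and 3 of 5 pluripotency markers tested were called lower. The part of these cells in the differences of Entpd2 and of the other members at the SNM stage was not tested.

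Adora1 gave 5.64, 5.90 and 5.93 in control and 7.23, 7.54 and 7.44 in HPRT-knockdown SNM cells. The groups did not overlap, and the level was 2.99-fold higher in HPRT-knockdown cells (log2 1.58, SE 0.15, limma adjusted p = 2.62e-07). Its second probe gave 2.56-fold and the third 1.63-fold, both called higher. Adora2b, the low-affinity adenosine receptor that raises cyclic AMP, gave 5.69, 6.09 and 5.83 in control and 6.53, 6.63 and 6.51 in HPRT-knockdown cells. This was a 1.60-fold difference without overlap (log2 0.68, SE 0.12, limma adjusted p = 0.000208).

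The call for Nt5e at the SNM stage depended on the probe and on 1 array. Its main probe gave 5.63, 6.16 and 6.22 in control and 6.62, 6.63 and 6.64 in HPRT-knockdown cells, a log2 difference of 0.62 (SE 0.16, limma adjusted p = 0.00380). Without control SNM array 1 the difference was 0.44 and no longer called. The second Nt5e probe gave 5.28, 5.40 and 5.31 against 5.32, 5.36 and 5.29, with overlapping groups (log2 0.00, SE 0.09, limma adjusted p = 0.976). Without background correction, the log2 differences were 0.38 to 0.45 for the main Nt5e probe and 0.41 to 0.48 for Adora2b under the 3 scalings tried, short of 1.5-fold, so that neither was called.

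At the neuronal stage 4 of 8 members tested were called higher in HPRT-knockdown cells and 1 lower. Of all probes tested, 27.4% were called, 13.9% higher and 13.5% lower. The median log2 difference of the 8 members was 0.63, against 0.01 over all probes tested. P2ry2 was among the 8 only through its detection in HPRT-knockdown cells. The members higher were Adora1, P2rx4, P2ry1 and Nt5e, and the member lower was Adora2b.

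P2rx4, an ATP-gated cation channel, gave 6.07, 5.92 and 6.0 on the control arrays and 8.21, 8.19 and 8.16 on the HPRT-knockdown arrays. The difference was 4.56-fold (log2 2.19, SE 0.14, limma adjusted p = 1.66e-09). The second P2rx4 probe also separated the groups, with 5.35, 5.40 and 5.67 against 7.10, 7.33 and 7.15 (3.30-fold, limma adjusted p = 3.66e-08). At the SNM stage the P2rx4 arrays of the groups overlapped (log2 0.32, SE 0.14, limma adjusted p = 0.0700).

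Nt5e, the enzyme that completes the path from ATP to adenosine, gave 5.96, 6.01 and 5.85 in control and 7.76, 7.87 and 7.92 in HPRT-knockdown neuronal cells. Its level was 3.76-fold higher (log2 1.91, SE 0.16, limma adjusted p = 3.51e-08), and the second probe gave a 2.37-fold rise with no overlap. P2ry1, a receptor for ADP, gave 6.84, 7.03 and 7.04 in control and 7.59, 7.74 and 7.75 in HPRT-knockdown cells. This smaller difference of 1.65-fold was again free of overlap (log2 0.72, SE 0.08, limma adjusted p = 6.47e-07). P2ry2, a receptor for ATP and UTP, was at 5.06, 4.86 and 4.87 in HPRT-knockdown cells and was not detected on any control array. P2ry2 was tested only because HPRT-knockdown cells, where it was higher, passed the detection filter. Its level there was at least 1.17-fold that of control cells (fitted log2 0.43), which was below the minimum change. Its second probe was not detected on any array.

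Adora2b moved the other way at the neuronal stage. Control cells gave 7.45, 7.27 and 7.31 and HPRT-knockdown cells 6.29, 6.42 and 6.21, so that every HPRT-knockdown array lay below every control array. The level was 2.05-fold lower in HPRT-knockdown cells (log2 -1.04, SE 0.12, limma adjusted p = 1.95e-06). The SNM stage had shown the opposite order. Without background correction, Adora1 (0.52 to 0.56) and P2ry1 (0.52 to 0.55) kept their direction at the neuronal stage but fell short of 1.5-fold under the 3 scalings tried.

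Entpd2 gave 7.09, 6.83 and 6.91 in control and 7.54, 7.51 and 7.39 in HPRT-knockdown neuronal cells. The groups did not overlap, but the log2 difference of 0.54 (SE 0.13, limma adjusted p = 0.00253) stayed under 1.5-fold, and it passed at 0.61 without control array 1. Slc29a1 gave 8.08, 7.78 and 7.84 in control and 7.56, 7.81 and 7.48 in HPRT-knockdown neuronal cells. These arrays overlapped, and the log2 differences of Slc29a1 between HPRT-knockdown and control cells were -0.10, -0.22 and -0.28 at the 3 stages in order, each with an SE of 0.11 and none called.

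**Figure D2:**
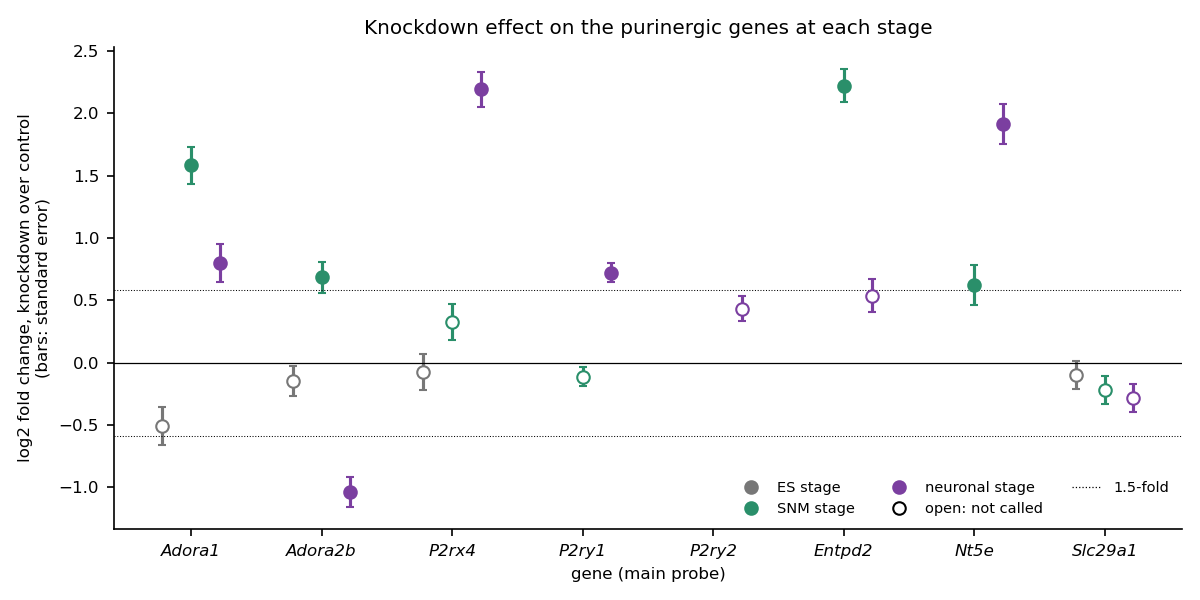
Log2 fold change of HPRT-knockdown over control cells for the main probe of each gene (horizontal axis) at the ES (grey), SNM (green) and neuronal (purple) stages, with bars for the standard error, filled symbols for called changes, and dotted lines at 1.5-fold. Adora1 and Entpd2 had their highest values at the SNM stage (1.58 and 2.22), P2rx4 and Nt5e at the neuronal stage (2.19 and 1.91), and Adora2b changed sign from 0.68 to -1.04.

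Markers of other cell types differed between the same neuronal RNA pools. All 9 oligodendrocyte markers were called higher in HPRT-knockdown cells, with summed signals from 67047 to 69627 against 3357 to 3530 in control cells. All 8 skeletal muscle markers were called lower, with sums from 312 to 423 against 69705 to 70614, and the main probes of Ckm, Myog and Tnnt3 were not detected in HPRT-knockdown cells. All 5 pluripotency markers tested were called lower, with sums of 3702 to 4048 against 9023 to 9258. Of 6 astrocyte markers, 5 were called higher, with sums of 13339 to 13630 against 7411 to 8120. All 6 fibroblast markers were called lower, and 4 of 6 neuron markers tested were called lower and 0 higher. Of 7 microglia and macrophage markers, 2 were detected on all arrays in each neuronal condition, while Cx3cr1, Itgam and C1qa were not detected in either. Of the 3 tested, 0 were called, and sums ran from 198 to 227 against 217 to 245. What part these cells had in the purinergic differences was not tested.

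Adora1 at the neuronal stage depended on the probe. The main probe gave 6.22, 6.12 and 6.41 in control and 6.93, 7.16 and 7.05 in HPRT-knockdown cells, and was 1.74-fold higher without overlap (log2 0.80, SE 0.15, limma adjusted p = 0.000228). The second probe behaved alike, with 6.10, 6.35 and 6.19 against 6.98, 6.99 and 7.02 (1.72-fold, limma adjusted p = 1.20e-05). The third probe gave 10.71, 10.76 and 10.75 in control neuronal cells and was not detected on the HPRT-knockdown arrays, at 4.46, 4.43 and 4.25. By this probe the level was at least 63.7-fold lower in HPRT-knockdown cells (fitted log2 -6.36, limma adjusted p = 1.95e-18).

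The third Adora1 probe stood apart in the other conditions too. It was not detected in ES cells of either kind and lay near 4.90 in control and 5.61 in HPRT-knockdown SNM cells. Over the 18 arrays its log2 signal was most like that of Kbtbd10 (r = 0.997), Tcap (r = 0.995) and Myom1 (r = 0.995), of which Tcap and Myom1 encode sarcomere proteins. None of these was among the 3 genes most like either of the first 2 Adora1 probes. RefSeq places Mybph, a muscle gene with no probe on the array, on the opposite strand overlapping the span of Adora1, and Myog, the muscle regulator myogenin, next to it. The Myog probe ILMN_2863674 averaged 8.90 in control and 4.54 in HPRT-knockdown neuronal cells, and correlated with the third Adora1 probe at 0.993 over 18 arrays. The other Myog probe, ILMN_2621812, averaged 6.06 and 4.86, was detected on all arrays of both neuronal conditions, and correlated at 0.80. Among other nearby genes, Chi3l1 averaged 8.51 in control and 7.27 in HPRT-knockdown neuronal cells and also correlated at 0.80. Chit1 correlated at 0.09 and Ppfia4 at 0.04. Which transcript the third probe reports was not tested. The fourth Adora1 probe was detected on 2 arrays, both of HPRT-knockdown neuronal cells. At the neuronal stage the rise in HPRT-knockdown cells was therefore seen with the first 2 probes and not with the third, while at the SNM stage all 3 gave the same direction.

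**Figure D3:**
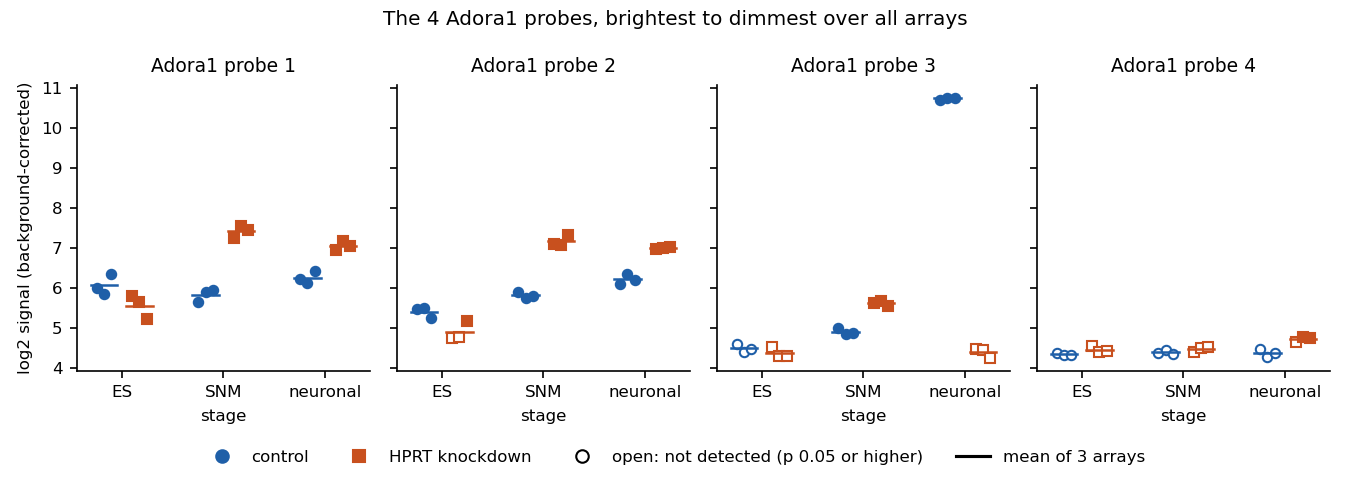
Log2 signal of the 4 Adora1 probes, ordered by mean signal, on each array by stage, with control cells as blue circles, HPRT-knockdown cells as orange squares, open symbols for arrays without detection and lines for means of 3 arrays. Probes 1 and 2 were higher in HPRT-knockdown cells at the SNM and neuronal stages, whereas probe 3 was near 10.74 in control neuronal cells and not detected in HPRT-knockdown neuronal cells.

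Whether the effect of HPRT knockdown changed from stage to stage was tested as a difference of differences, and both steps use the SNM arrays. From the ES to the SNM stage, 4 of 7 members tested had a called rise of the effect and 0 a fall. Of all probes tested, 21.3% were called, 11.7% rising and 9.61% falling. From the SNM to the neuronal stage, 3 of 8 members tested had a called rise and 3 a called fall. Of all probes tested, 28.6% were called, 13.7% rising and 14.8% falling. Among the members, rises were those of P2rx4 (log2 1.87), Nt5e (1.29) and P2ry1 (0.83), and falls those of Adora2b (-1.72), Entpd2 (-1.68) and Adora1 (-0.78). For Adora1 the second probe gave -0.57 and was not called, and the main probe fell short of 1.5-fold without background correction under quantile normalization (-0.51) and 75th percentile scaling (-0.53). The effect on Slc29a1 changed by -0.06 (SE 0.16, limma adjusted p = 0.780) and was not called.

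Changes between stages were examined within each cell type, and the comparisons within control and within HPRT-knockdown cells share their ES, SNM and neuronal arrays with those above. From the ES to the SNM stage, 4 of 7 members tested were called in control cells (3 higher, 1 lower), against 49.1% of all probes tested, of which 23.7% higher and 25.4% lower. In HPRT-knockdown cells 7 of 7 were called (6 higher, 1 lower), against 57.3%, of which 26.4% higher and 30.9% lower. The member lower in both was Slc29a1. P2ry1, Entpd2 and Nt5e were higher in both, and Adora1, Adora2b and P2rx4 were called in HPRT-knockdown cells. P2ry1, Entpd2 and Nt5e were tested only because SNM cells, where they were higher, passed the detection filter. The filter thus favoured the direction in which these genes were called. The P2rx4 call (log2 0.75) did not hold for its second probe (0.41) or for the mean over its probes (0.58). The second Nt5e probe averaged 4.78 in control ES and 5.33 in control SNM cells, and 4.75 and 5.32 in HPRT-knockdown cells. Both of these rises were under 1.5-fold.

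Slc29a1, the equilibrative nucleoside transporter ENT1, gave 9.79, 9.75 and 9.77 in control ES cells and 7.85, 7.71 and 7.64 in control SNM cells. In HPRT-knockdown cells it gave 9.78, 9.48 and 9.74 and then 7.68, 7.56 and 7.30. The falls were 4.11-fold and 4.46-fold, with limma adjusted p = 8.99e-11 and 3.14e-11, and no SNM array reached the level of an ES array. Between the SNM and neuronal stages the transporter did not pass the test in either cell type, at log2 0.17 and 0.10. The second Slc29a1 probe fell by 4.81-fold and 5.82-fold from the ES to the SNM stage.

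P2ry1 was not detected in ES cells and gave 6.57, 6.61 and 6.66 in control and 6.41, 6.58 and 6.52 in HPRT-knockdown SNM cells. It was thus at least 3.36-fold higher at the SNM than at the ES stage in control cells and at least 2.97-fold higher in HPRT-knockdown cells. From the SNM to the neuronal stage it rose by log2 1.19 in HPRT-knockdown cells (SE 0.08, limma adjusted p = 1.59e-09), while in control cells the log2 difference of 0.36 was under the minimum. Entpd2 stood at 4.57 to 4.88 in control and 4.54 to 5.2 in HPRT-knockdown ES cells, and was detected on 1 of 3 arrays of each, so that the folds from this stage start near background. Its rise to the SNM stage was 1.87-fold in control (limma adjusted p = 1.27e-05) and 7.98-fold in HPRT-knockdown cells (limma adjusted p = 3.70e-12).

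From the SNM to the neuronal stage, 2 of 7 members tested were called in control cells, both higher, against 29.4% of all probes tested and 14.3% called higher. They were Adora2b (2.77-fold, limma adjusted p = 3.30e-08) and Entpd2 (2.44-fold, limma adjusted p = 4.41e-07). In HPRT-knockdown cells 3 of 8 were called, all higher, against 28.6% and 13.8% called higher. These were P2rx4 (4.05-fold), Nt5e (2.33-fold) and P2ry1 (2.28-fold), with limma adjusted p = 4.94e-09, 6.21e-06 and 1.59e-09. Over the whole course from ES to neuronal stage, 5 of 7 members tested were called in control cells (4 higher, 1 lower), against 61.1% of all probes tested (27.8% higher and 33.4% lower). In HPRT-knockdown cells 7 of 8 were called (6 higher, 1 lower), against 63.7% (30% higher and 33.7% lower). P2ry1, Entpd2 and Nt5e, higher in both, were again tested only because the later stage, where they were higher, passed the detection filter. In control cells the Nt5e call from ES to neuronal stage did not hold for the mean over its probes (log2 0.55).

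The order of the 6 conditions differed between members. Adora1 was highest in HPRT-knockdown SNM cells (7.41), followed by HPRT-knockdown neuronal cells (7.05), and the other 4 conditions overlapped their neighbours between 6.25 and 5.55. Entpd2 had the same leading pair, at 7.88 and 7.48, followed by control neuronal (6.94) and control SNM cells (5.66), none overlapping the next, and then by both ES conditions, which overlapped. For Adora2b control neuronal cells stood first at 7.34, above HPRT-knockdown SNM (6.56) and HPRT-knockdown neuronal cells (6.31), and the remaining 3 overlapped their neighbours.

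P2rx4, P2ry1 and Nt5e were each highest in HPRT-knockdown neuronal cells, and no array of the next condition reached them. For P2rx4 the other 5 conditions overlapped their neighbours from 6.17 down to 5.42. For P2ry1 control neuronal cells came second at 6.97, the SNM conditions overlapped at 6.61 and 6.50, and the ES conditions, not detected, came last. For Nt5e HPRT-knockdown SNM cells came second at 6.63, control SNM and control neuronal cells overlapped at 6.01 and 5.94, and the ES conditions were lowest. Slc29a1 was highest in both ES conditions, which overlapped at 9.77 and 9.67, and the other 4 overlapped their neighbours from 7.90 to 7.51.

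Across the 18 arrays, which come from 6 RNA pools and share normalization, P2rx4 and Nt5e correlated at r = 0.917, Adora1 and Entpd2 at 0.865, and P2ry1 and Slc29a1 at -0.928. Among 16254 genes with a detected brightest probe, Entpd2 was most like Nrbp2 (r = 0.991) and Aldh1l1 (r = 0.987), the latter one of the astrocyte markers. P2rx4 was most like the transcript LOC547343 (r = 0.987) and Tppp (r = 0.983), which encodes a tubulin-binding protein of oligodendrocytes. P2ry1 was most like Pcdh9 (r = 0.995), Nt5e like 4732418C07Rik (r = 0.979), Adora2b like Itga7 (r = 0.966), an integrin of muscle, and Slc29a1 like Ela2a (r = 0.994). The main Adora1 probe was most like St3gal6 (r = 0.966), and P2ry2 most like Amz1 (r = 0.904). These correlations describe conditions of few pools and carry no test.

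The rest of the purinergic system was followed with 34 further genes, of which all were on the array. They were 13 receptors, 10 genes grouped as ectoenzymes, 9 transport and release genes and 2 intracellular adenosine enzymes. Those grouped as ectoenzymes were Entpd3, Entpd4, Entpd5, Entpd6, Entpd8, Enpp1, Enpp2, Enpp3, Alpl and Dpp4, and where each acts in the cell was not examined. At the ES stage 15 of the 34 were tested and 0 called, with 10 at an unadjusted p-value under 0.05. Among all 18411 probes tested, 4761 were at that level, a smaller share. At the SNM stage 20 were tested, of which 1 was called higher and 4 lower. At the neuronal stage 19 were tested, of which 7 were called higher and 3 lower. The shares of all probes called at these stages were those given above, 1.68%, 19.9% and 27.4%.

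Of the 5 receptors tested at the neuronal stage, 4 were higher in HPRT-knockdown cells and 1 lower. Gpr17, a receptor of immature oligodendrocytes related to the P2Y family, averaged 5.92 in control and 11.80 in HPRT-knockdown cells, a 59.2-fold difference (limma adjusted p = 8.45e-17). P2ry6, a receptor for UDP, was 4.06-fold higher (5.00 against 7.03, limma adjusted p = 1.43e-07). P2ry14, a receptor for UDP-sugars, was 2.13-fold higher (7.53 against 8.62, limma adjusted p = 7.07e-09). P2rx7, an ATP-gated channel, was not detected in control cells and was tested only because HPRT-knockdown cells, where it was higher, passed the detection filter. Its call rests on a fitted 1.54-fold difference, while the lower bound was 1.31-fold, under the 1.5-fold minimum. P2rx5, a channel of the same family, averaged 6.29 in control and 4.80 in HPRT-knockdown cells and was 2.80-fold lower (limma adjusted p = 6.58e-10).

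Of the 5 receptors tested at the SNM stage, 2 were called lower and 1 higher. Gpr17 was 2.06-fold lower in HPRT-knockdown cells there (9.71 against 8.66, limma adjusted p = 3.65e-07) and P2ry6 1.53-fold lower (5.61 against 5.00, limma adjusted p = 0.0130). P2ry14 was 2.53-fold higher (5.05 against 6.39, limma adjusted p = 1.53e-09), as it was at the neuronal stage. Oligodendrocyte markers went down alongside at this stage, with 5 of 8 tested called lower in HPRT-knockdown cells, and their part in these values was not tested.

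Among the ectoenzymes at the neuronal stage, the nucleotide pyrophosphatase Enpp1 was 2.03-fold higher in HPRT-knockdown cells (limma adjusted p = 1.11e-08). Enpp2, the enzyme autotaxin, averaged 10.05 in control and 12.92 in HPRT-knockdown cells, a 7.28-fold difference (limma adjusted p = 2.68e-08). Alpl, the phosphatase that the array lists as Akp2, was 1.57-fold lower (limma adjusted p = 3.67e-05). Ada, which deaminates adenosine inside cells, was 1.82-fold higher (limma adjusted p = 3.61e-05). The concentrative nucleoside transporter Slc28a1 was not detected in HPRT-knockdown neuronal cells and was at least 1.70-fold lower there, and at the SNM stage it was 2.68-fold lower (limma adjusted p = 2.66e-09). Slc29a3, an intracellular nucleoside transporter, was 1.63-fold lower at the SNM stage (limma adjusted p = 0.000427) and was not called at the neuronal stage. At the neuronal stage, each further tested probe of P2ry14, Enpp1, Enpp2 and Ada was called in the same direction as the main probe. The second P2rx7 probe was also called higher (log2 0.98), but it passed the detection filter at the neuronal stage alone. The filter may thus have set its direction. Other probes of P2rx7 (log2 0.07, 0.60 and 0.02), P2ry14 and Enpp2 did not pass the detection filter and were not tested. The further probes of P2rx5 were also not tested, at log2 -0.17 and -0.13 against -1.49 for its main probe.

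**Figure D4:**
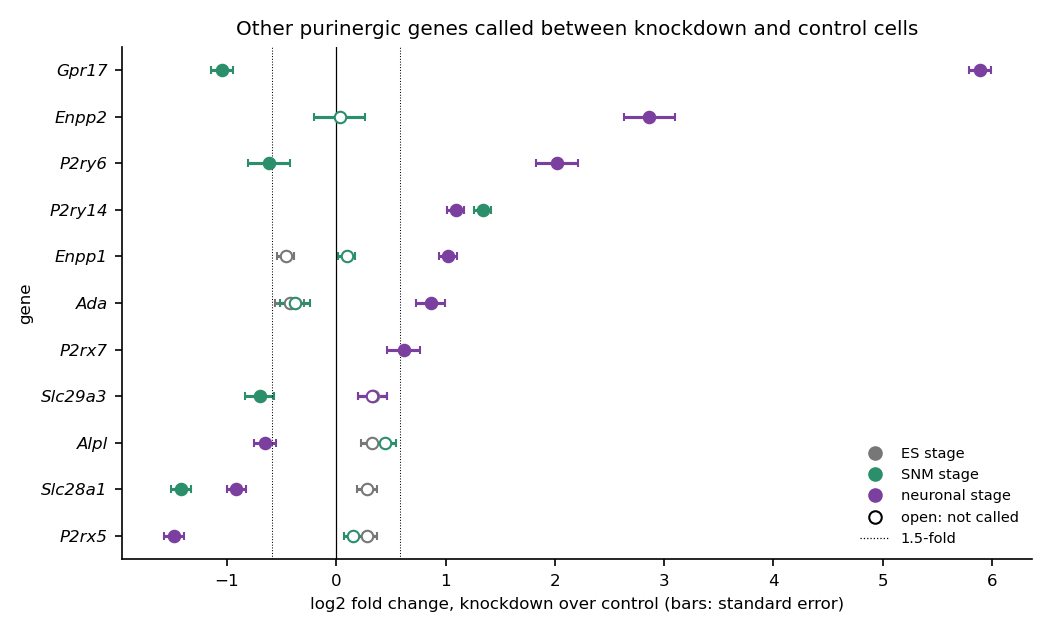
Log2 fold change of HPRT-knockdown over control cells (horizontal axis, bars for the standard error) for the 11 further purinergic genes called in at least 1 comparison of these cells, at the ES (grey), SNM (green) and neuronal (purple) stages, with filled symbols for called changes and dotted lines at 1.5-fold. Gpr17 ran from -1.04 at the SNM stage to 5.89 at the neuronal stage, and P2ry14 was higher at both.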

How the data were processed

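RNA of 6 conditions (control and HPRT-knockdown ESD3 cells at 3 stages) was measured on 18 arrays. The deposited table of the authors holds the signal intensity of each probe, averaged over beads by Illumina's software without background subtraction or normalization. Beside each intensity the authors deposited a detection p-value, the share of negative-control beads brighter than the probe. Groups and array numbers came from the sample titles; the description field reads replicate 3 for all 18 samples and was not used. A second deposited table supplied only probe symbols, since its 72 columns of per-sample values could not be paired with samples, and they were not used. The deposited intensities were corrected with neqc of limma 3.58.1 (R 4.3.3), which quantile-normalized the background-corrected values and gave log2 signals after an offset of 16. Depth does not apply to arrays, whose number limits the precision.

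A single limma model over the 6 conditions (lmFit, contrasts.fit, eBayes) gave 11 two-sided comparisons, 9 of conditions and 2 of the knockdown effect between stages. It took the place of the t-test named in the study's methods, whose detection filter and 1.5-fold minimum were kept. Where a probe was not detected on any array of a condition, its fold is a lower bound: the bright condition's mean against the mean, over the dim condition's arrays, of the higher of the lowest detected signal and the probe's own. The genes named are all members, the 34 further purinergic genes by count and, where called between knockdown and control, by value, the 3 genes most correlated with a member, Hprt1 and cell type markers. Members and lists were chosen with earlier results of these data known. The third Adora1 probe was singled out after its values were seen.

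Arrays of equal number varied together, with all 3 correlations of their deviations from the condition means above 0.1, in 3 of 9 comparisons: knockdown against control at the SNM stage (0.52, 0.11 and 0.51), and the neuronal against the SNM stage (0.55, 0.13 and 0.53) and against the ES stage (0.44, 0.12 and 0.37) in knockdown cells. Alternatives were 3 normalizations without background correction, other detection and fold limits, the mean over probes, the array number as a block, the methods' t-test, fits on fewer arrays and leaving out each array. The scripts were tested on simulated data. Promoter sequences are from RefSeq (GRCm38.p6), and Alpl was found through its gene ID as Akp2.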

Additional observations from a re-analysis of the deposited data

Results flagged for a closer look

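The knockdown effect of 6 members differed between stages by the test of the difference itself (limma, Benjamini-Hochberg adjusted over all probes tested). From the ES to the SNM stage the log2 difference between HPRT-knockdown and control cells changed by 2.09 for Adora1 (adjusted p = 1.22e-06), by 2.09 for Entpd2 (adjusted p = 3.81e-07), by 0.83 for Adora2b (adjusted p = 0.00120) and by 0.75 for Nt5e (adjusted p = 0.0149). From the SNM to the neuronal stage it changed by 1.87 for P2rx4 (adjusted p = 1.28e-06), by 1.29 for Nt5e (adjusted p = 0.000198) and by 0.83 for P2ry1 (adjusted p = 1.03e-05). Over the same step it changed by -1.72 for Adora2b (adjusted p = 5.15e-07), by -1.68 for Entpd2 (adjusted p = 1.79e-06) and by -0.78 for Adora1 (adjusted p = 0.00593). Entpd2 was detected on 1 of 3 arrays in each ES condition, and Nt5e on 2 control and 1 HPRT-knockdown ES array, so their changes from the ES stage rest on ES signals near background. The second Nt5e probe changed by 0.03 over the first step and by 1.25 over the second. The reduction of Hprt1 itself was smallest at the SNM stage, which both steps share.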

How the results depend on the processing

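The directions and calls of Entpd2 at the SNM stage and of P2rx4, Nt5e and Adora2b at the neuronal stage were the same under each alternative run. Without background correction, under quantile normalization, scaling to the 75th percentile or no scaling, and likewise under a 2-fold minimum, called members numbered 2 at the SNM stage (main value 4), 3 at the neuronal stage (5), 2 from ES to SNM in control cells (4) and 2 for the change of the effect from ES to SNM (4). The further purinergic genes called numbered 6 at the neuronal stage (10) under these 4 settings and 3 at the SNM stage (5) under quantile normalization, no scaling and the 2-fold minimum. Without a minimum change, 1 member and 3 further genes were called at the ES stage, 12 further genes at the SNM stage, 8 members at the neuronal stage, and 4 and 6 members from SNM to neuronal stage in control and knockdown cells.

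The Adora1 difference at the neuronal stage was reversed, to -1.11 with the mean over probes and to -6.36 with the third probe, an alternative chosen after seeing the data. The Nt5e call at the SNM stage was lost with the mean over probes (0.31), in the methods' t-test after adjustment over all probes, which took the place of limma (adjusted p = 0.0712) and without control SNM array 1 (0.44, and 0.56 for its change from the ES stage). The causes were not tested. With the array number as a replicate block in limma, 78 of 78 test results of members, whether called or not called, were the same. The methods' t-test paired by array number, used in place of limma, did not call Nt5e at the SNM stage (unadjusted p = 0.0775) or, in control cells, from ES to SNM (0.0851) or ES to neuronal (0.0647).

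Leaving out 1 array at a time, called members ranged from 0 to 1 at the ES stage, from 3 to 4 at the SNM stage and from 5 to 6 at the neuronal stage. Further genes ranged from 0 to 2, from 3 to 5 and from 9 to 11. From ES to SNM the called members stayed at 4 in control and 7 in knockdown cells, and from SNM to neuronal at 2 in control and from 3 to 4 in knockdown cells. From ES to neuronal they ranged from 5 to 6 in control and from 6 to 7 in knockdown cells, and for changes of the effect from 3 to 4 and from 6 to 7. Without control ES array 1, P2rx4 from ES to neuronal in control cells was called (0.67). Without knockdown ES array 1, Adora2b from ES to neuronal in knockdown cells was not called (0.55). P2ry2 was called from SNM to neuronal in knockdown cells without knockdown neuronal array 2 or 3 or knockdown SNM array 3 (0.59 to 0.60), and its change of effect without control neuronal array 1 (0.60). From ES to SNM in control cells without background correction, 69.1% of called probes were higher without scaling, against 50.1% under quantile normalization, and the median over all probes tested was -0.17 under 75th percentile scaling, against -0.06.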
